A study of Mus musculus with 6 samples.

Results

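The integrin and laminin genes were those measured by the 86 of 45281 array probes whose name on the array began with ITGA or ITGB followed by a letter or digit, or with LAMA, LAMB or LAMC followed by a digit, without the names ITGB1BP and ITGB3BP. They represented 39 of the 28902 gene names on the array, namely 18 integrin alpha chains, 10 genes of the beta group and 11 laminin chains. The remaining probe carried the name ITGB4BP, an older name of Eif6, a ribosome assembly factor that is no integrin. It was described by probe only. The cells were malignant epithelial cells in short-term explant culture from the pancreatic tumour of a KPC-Brca1 mouse, and both groups came from that culture. Untreated plates were compared with plates kept for 48 h in 0.5 µM decitabine (5-aza-dC, DAC), a nucleoside that enters DNA and depletes its methyltransferases, with n = 3 per group. The labels gave neither the alleles nor the age of the mouse and named no second tumour, so p-values measured the spread between plates of a single culture, which may be technical.

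Integrins are receptors made of an alpha and a beta chain that hold a cell to its matrix or to another cell and signal in both directions across the membrane. Laminins are cross-shaped trimers of an alpha, a beta and a gamma chain and form the sheet of the basement membrane that epithelial integrins bind. In epithelia, the integrin of Itga6 and Itgb4 anchors hemidesmosomes to a laminin that holds the chains of Lama3 and Lamb3. Itgb1 pairs with many alpha chains, and the beta chains of leukocytes, Itgb2 and Itgb7, serve the arrest and tissue homing of white blood cells.

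A probe counted as detected on an array at a detection p under 0.05, which held for 43.9% to 47.4% of probes, and the number of arrays limits the precision. The arrays of untreated replicates 2 and 3 correlated at r = 0.998 over genes, against 0.982 and 0.981 with untreated replicate 1, which stood apart. Of 10 epithelial markers 8 were detected on all 6 arrays, among them Krt8, Krt18, Krt19 and Cdh1, while no probe of Epcam or Esrp1 was detected on any array. Values below are log2 signals after background correction and quantile normalization, and changes are log2 differences, DAC minus untreated, ± standard error (SE), from limma with Benjamini-Hochberg adjustment over 14154 genes. A gene was called changed at an adjusted p under 0.05.

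Of the 39 genes, 25 were measured well enough to test, and 23 were detected on all 6 arrays. For 9 genes no probe was detected on any array. These were the leukocyte alpha chains Itgad, Itgal, Itgam and Itgax, the alpha chain Itga9, the beta chain Itgb2l, and the laminin chains Lama1, Lama4 and Lamc3. Lama4, the alpha chain of endothelial and muscle laminins, had 5 probes and Itgad also had 5, so their lack of detection did not rest on a single probe. That of Itgal, Itgam, Itga9 and Lama1 did, with 1 probe each. Another 5 genes were detected on too few arrays to test. Among them Itgb8, which joins Itgav in a receptor that activates TGF-beta, was detected on 2 of 3 untreated and 0 of 3 DAC arrays. Its brighter probe read 4.74, 4.99 and 5.00 untreated and 4.56, 4.54 and 4.48 with DAC, so the groups did not overlap near the background. Itgb2, the common beta chain of leukocyte integrins, was detected on 0 of 3 untreated and 2 of 3 DAC arrays, at 4.60, 4.30 and 4.46 untreated and 4.69, 4.96 and 4.85 with DAC. Itga4, Itga8 and Lama2 were detected on 1 array of a group at most.

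**Figure D1:**
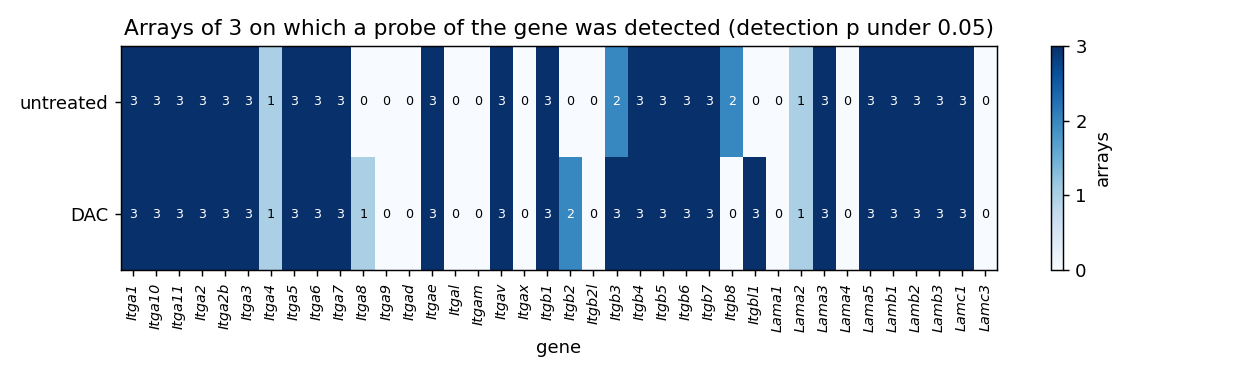
Number of arrays, of 3 untreated (upper line) and 3 DAC (lower line), on which at least 1 probe of each of 38 of the 39 genes had a detection p under 0.05; darker blue means more arrays. In 22 genes both cells read 3, in 9 genes both read 0, and Itgbl1 reads 0 untreated and 3 with DAC.

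Few of the tested genes changed. Of 25, 4 rose, which were Itgb7, Itgbl1, Itgb6 and Lamb3, and 1 fell, Lama5. Over all genes tested 10.1% rose and 7.21% fell, so the members' shares lay near the background and are no result about the family as a whole. The median change of the 25 was 0.02, beside -0.02 over all genes, with 13 genes above 0 and 12 below. The groups did not overlap in 11 of the 25 genes, with DAC higher in 5 and lower in 6, against 36.2% of all genes. By probe, 39 of the 86 were tested, and 3 were called, those of Itgb7, Lamb3 and Itgbl1, where 15% of all 21415 tested probes were called. In these bulk samples fewer cells with a transcript and less transcript per cell cannot be told apart.

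**Figure D2:**
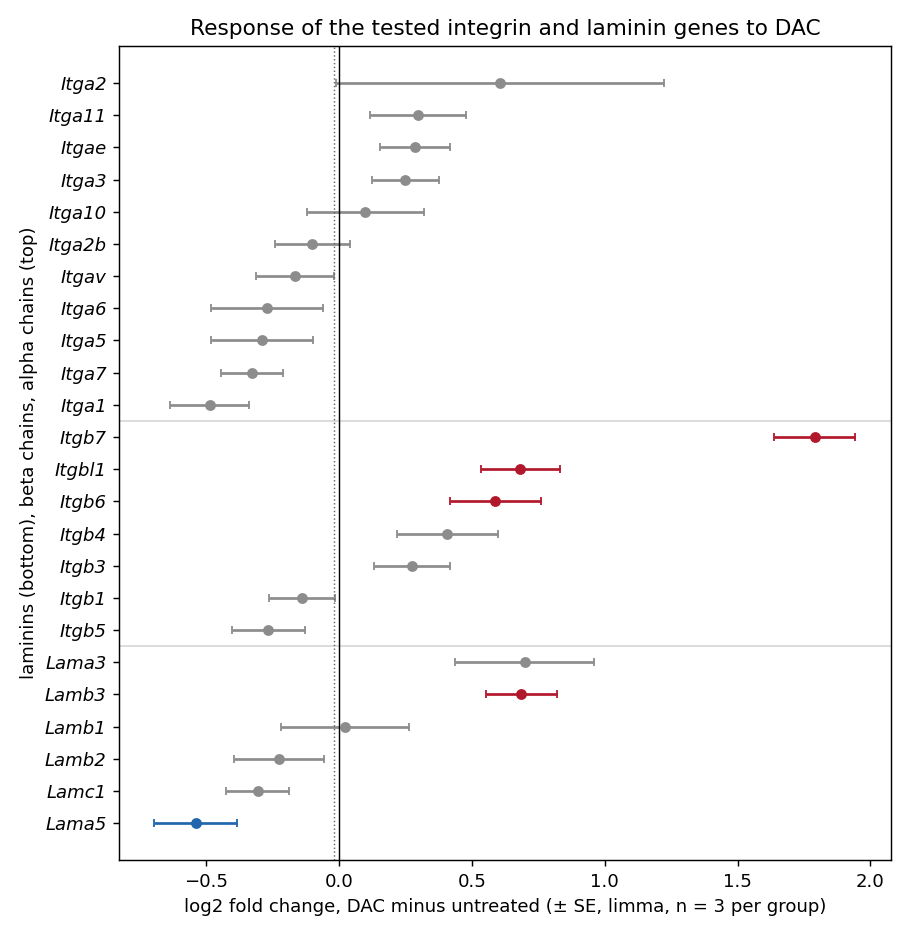
Log2 fold change, DAC minus untreated, with its SE, for 24 of the 25 tested genes, n = 3 per group, ordered within alpha chains (top), beta chains with Itgbl1 (middle) and laminins (bottom). Red marks adjusted p under 0.05 and higher, blue adjusted p under 0.05 and lower, grey not past the threshold; the dotted line is the median of all genes at -0.02, and Itgb7 at 1.79 lies farthest from 0.

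Itgb7, whose protein pairs with the chains of Itga4 or Itgae on lymphocytes, showed the largest change among the 25. Its signal was 5.72, 5.21 and 5.39 on the untreated arrays and 7.30, 7.10 and 7.29 on the DAC arrays. The lowest treated value thus lay well above the highest untreated value, and its only probe was detected on all 6 arrays. As deposited, before any correction, the probe's mean intensity was 93.1, 67.2 and 74.2 untreated and 204.6, 170.0 and 155.5 with DAC, with bead standard errors from 2.36 to 7.82. The rise was 1.79 ± 0.15 (adjusted p = 0.000156, limma, n = 3 per group), a 3.46-fold change. It was called when any 1 array was left out, with adjusted p between 1.23e-05 and 0.00253 (limma).

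Of the known partners of the beta 7 chain, Itgae did not pass the threshold and Itga4 could not be tested. Itgae, the alpha E chain that binds E-cadherin, read 5.08, 4.94 and 5.08 untreated and 5.11, 5.37 and 5.48 with DAC, low values with a small gap between the groups. Its change was 0.29 ± 0.13 (adjusted p = 0.177, limma). Only 2 of its 6 probes were tested, and the other gave 0.30 ± 0.17. For Itga4, 0 of 6 probes could be tested. Of the vascular and epithelial ligands of these receptors, Madcam1 was detected on no array, Vcam1 differed by 0.57 ± 0.18 (adjusted p = 0.0656, limma) and Cdh1 by 0.16 ± 0.14.

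Leukocyte markers were measured beside this leukocyte integrin chain. Of 13 measured, 8 lacked a detected probe on every array, including Ptprc, the common leukocyte antigen, the T cell marker Cd3e, and Lyz2, Tyrobp and Fcer1g of myeloid cells. Of 4 tested, 1 rose and 1 fell, beside 10.1% and 7.21% of all genes. Laptm5, a lysosomal membrane protein of blood cells, was at least 3.93-fold higher with DAC, but it was detected on 0 of 3 untreated arrays, so that only its DAC arrays let it be tested and it had to differ. Cd14 fell by 0.60 ± 0.11. Coro1a and Cd68 differed by 0.76 ± 0.24 and 0.09 ± 0.13. The median change of the 4, Laptm5 among them, was 0.42, with 3 above 0. Of the 3 detected on all 6 arrays, Coro1a and Cd68 lay above 0 and Cd14 below. The summed signal of the 4 was 1492 to 1553 on the untreated and 1156 to 1253 on the DAC arrays. Cd14 contributed most to the sum and the median takes in Laptm5, so neither gives a direction for the list.

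The start region of Itgb7 is shown because it carries the largest change, with those of Lamb3, the risen laminin chain, and Lama5, the fallen one, for comparison. DAC acts on methylation of cytosine in CG dinucleotides. Each line holds the 250 bases before the annotated gene start, 5′ to 3′ on the strand of the gene, from RefSeq on GRCm38.p6, with every CG in capitals. For Lamb3, which has 2 annotated starts, it is the one farther upstream.
Itgb7, chr15:102231936-102232185, minus strand: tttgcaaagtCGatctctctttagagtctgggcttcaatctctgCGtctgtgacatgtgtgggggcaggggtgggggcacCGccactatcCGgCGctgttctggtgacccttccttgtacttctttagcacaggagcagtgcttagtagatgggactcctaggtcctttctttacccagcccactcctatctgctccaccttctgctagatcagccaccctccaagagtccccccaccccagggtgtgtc
Lamb3, chr1:193301744-193301993, plus strand: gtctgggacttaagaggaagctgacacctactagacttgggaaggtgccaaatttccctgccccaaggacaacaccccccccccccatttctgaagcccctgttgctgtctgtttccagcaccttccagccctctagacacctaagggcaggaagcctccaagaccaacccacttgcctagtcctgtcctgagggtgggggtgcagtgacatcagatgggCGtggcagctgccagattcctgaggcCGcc
Lama5, chr2:180225860-180226109, minus strand: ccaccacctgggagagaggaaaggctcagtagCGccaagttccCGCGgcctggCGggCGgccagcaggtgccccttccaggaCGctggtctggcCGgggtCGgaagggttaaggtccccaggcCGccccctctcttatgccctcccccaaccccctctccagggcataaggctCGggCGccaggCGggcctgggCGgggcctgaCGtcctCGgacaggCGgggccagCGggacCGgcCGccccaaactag

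The CG dinucleotide, which reads the same on both strands, occurred 5 times in the Itgb7 window, 2 times in that of Lamb3 and 19 times in that of Lama5. Of the 27025 promoters in the same table, 91.7% held at least 1 CG, and the median was 6. Windows with at most 5 made up 49.5% of all, and windows with at least 19 made up 19.5%. Itgbl1 had 5 and Itgb6 had 11, so the 4 risen genes spanned 2 to 11, within the 2 to 22 of the 12 tested members that were not called and had a window. In all, 25 of the 39 genes had a window in the table. Methylation itself was not measured in these samples, and the counts describe sequence only.

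Itgb6, the epithelial beta chain that joins Itgav and activates latent TGF-beta, rose by 0.59 ± 0.17 (adjusted p = 0.0494, limma, n = 3 per group). Its signal was 7.85, 7.35 and 7.31 untreated and 7.90, 8.21 and 8.17 with DAC. The groups did not overlap, but untreated replicate 1 lay within 0.1 of the lowest treated array. Its other probes gave 0.47 ± 0.22 and 0.23 ± 0.11, in the same direction, and none of its 3 probes was called in the fit by probe (adjusted p = 0.0592 for the brightest, limma). Leaving out untreated replicate 2 or 3 moved the adjusted p to 0.166 or 0.161 and ended the call. Leaving out DAC replicate 1, 2 or 3 gave 0.0596, 0.180 or 0.164 (limma). With median scaling it was also lost (adjusted p = 0.193, limma).

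Itgbl1 encodes an integrin beta-like secreted protein that lacks the membrane-spanning part of a receptor chain. No probe was detected on an untreated array, and 1 of 2 probes was detected on all 3 DAC arrays, at 4.94, 4.96 and 5.36 against 4.34, 4.55 and 4.32 untreated. It passed the filter on dim probes only through the DAC arrays and therefore had to differ. The change on the normalized values was 0.68 ± 0.15 (adjusted p = 0.0161, limma). With the untreated arrays set to at least the lowest signal of any detected probe, Itgbl1 was at least 1.2-fold higher with DAC. That bound was not tested. The call was lost without untreated replicate 3 (adjusted p = 0.0633, limma), and the gene was not testable when a DAC array was left out.

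**Figure D3:**
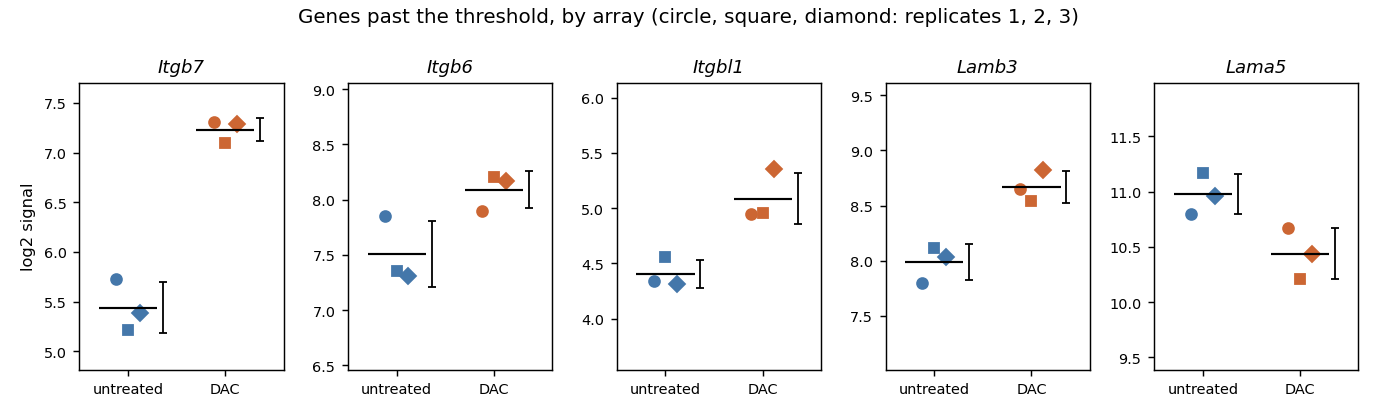
Log2 signal on each array for the 5 genes past the threshold, untreated in blue and DAC in orange, with the group mean (line) and SD (bar beside it), n = 3 per group; each panel has its own axis, which does not start at 0. The gap between groups is widest in Itgb7 (5.44 against 7.23), and in Itgb6 untreated replicate 1 at 7.85 lies next to DAC replicate 1 at 7.90.

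The remaining beta chains did not pass. Itgb4, the hemidesmosome chain, read 9.66, 8.99 and 9.002 untreated and 9.52, 9.62 and 9.73 with DAC (0.41 ± 0.19, adjusted p = 0.184, limma). Untreated replicate 1 lay among the treated arrays, and the second probe of the gene gave 0.11 ± 0.14. Itgb1 read 8.37, 8.23 and 8.46 untreated and 8.13, 8.38 and 8.14 with DAC, with overlapping groups and a change of -0.14 ± 0.13. The dimmer probe of Itgb1 gave -0.33 ± 0.33. Itgb5, a vitronectin receptor chain, read 10.71, 10.42 and 10.40 untreated and 10.08, 10.32 and 10.33 with DAC, a difference of -0.27 ± 0.14 (adjusted p = 0.221, limma) although the groups did not overlap. Itgb3, the beta chain of platelet and endothelial vitronectin receptors, was detected on 2 of 3 untreated and 3 of 3 DAC arrays, at 0.27 ± 0.14.

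None of the 11 tested alpha chains was called by limma, with adjusted p from 0.0561 to 0.798. At an unadjusted p under 0.05, 0 were higher and 2 lower. All genes were not counted at that threshold, so these counts are no result about the alpha chains. Itga1, a collagen receptor chain, came nearest, at 7.05, 7.45 and 7.31 untreated and 6.85, 6.91 and 6.58 with DAC, where all treated values were lower (-0.49 ± 0.15, adjusted p = 0.0561). Itga7, a laminin receptor chain known from muscle, also had no overlap, with a change of -0.33 ± 0.12 (adjusted p = 0.0958). Itga3, a laminin receptor chain of epithelia, read 11.72, 11.51 and 11.38 untreated and 11.81, 11.85 and 11.68 with DAC, and the groups overlapped (0.25 ± 0.13). Itga5, the fibronectin receptor chain, read 9.56, 9.95 and 10.03 untreated and 9.83, 9.21 and 9.63 with DAC, again with overlap (-0.29 ± 0.19). The dimmer probe of Itga5 gave -0.35 ± 0.17. Itgav, the vitronectin receptor alpha chain, read 8.44, 8.68 and 8.53 untreated and 8.62, 8.40 and 8.14 with DAC, which differed by less than the spread of the treated arrays (-0.17 ± 0.15). A dimmer tested probe of Itgav, detected on 3 untreated and 2 DAC arrays, gave -0.36 ± 0.16. The collagen receptor chains Itga10 and Itga11 and the platelet chain Itga2b differed by 0.10 ± 0.22, 0.30 ± 0.18 and -0.10 ± 0.14.

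Itga2, the alpha chain of an epithelial collagen receptor, varied more between untreated plates than between treatments. It read 7.79 on untreated replicate 1 but 10.38 and 10.30 on untreated replicates 2 and 3, and 10.37, 10.21 and 9.70 with DAC. The deposited intensities of its single probe were 303.9, 1226 and 1197 untreated, with bead standard errors of 11.1, 35.5 and 44.3 from 46, 54 and 39 beads. These errors cover the spread of beads within an array, not that between plates. The change over all arrays was 0.60 ± 0.62 (adjusted p = 0.547, limma), and without untreated replicate 1 it was -0.24 (adjusted p = 0.331). A signal on that array at least 2-fold below both other untreated arrays occurred in 1.89% of all tested genes, and Itga2 was the only 1 of the 25 members among them.

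Itga6, the laminin receptor chain of hemidesmosomes, varied in a similar way by probe. Its brightest probe read 8.53, 9.15 and 9.43 untreated and 8.76, 8.77 and 8.77 with DAC. Untreated replicate 1 minus the mean of the other untreated arrays was -0.76 on this probe, -1.58 on a dimmer one and 0.23 on another. The change was -0.27 ± 0.21 over all arrays (adjusted p = 0.421, limma) and -0.52 without untreated replicate 1 (adjusted p = 0.0120). The probes of Itgb1 disagreed likewise, with the same difference at -0.89 on 1 probe and 0.02 on the other.

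**Figure D4:**
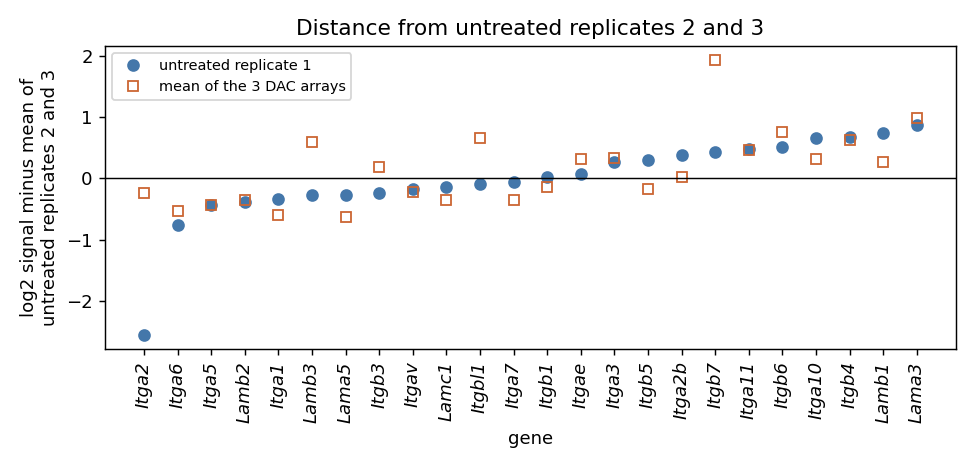
Log2 signal minus the mean of untreated replicates 2 and 3 for 24 of the 25 tested genes, for untreated replicate 1 (blue circles) and for the mean of the 3 DAC arrays (open orange squares), ordered by the circles. Itga2 lies at -2.55 on untreated replicate 1, and for Lama3 (0.87), Itgb4 (0.67) and Itgb6 (0.52) that array lies on the same side as the treated mean.

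Without untreated replicate 1, 13 of 25 members were called by limma, 8 higher and 5 lower. Calls over all genes grew as well, to 33.6% of the 13978 genes then tested, 2539 higher and 2162 lower. Whether the members' shares differed from these was not tested. Among the additional calls were rises of Lama3 (0.98), Itgb4 (0.62), Itga11 (0.45) and Itga3 (0.34) and falls of Itga1 (-0.59), Itga6 (-0.52) and Lamc1 (-0.35). Their adjusted p lay between 0.00343 and 0.04998. Whether that array or the other untreated pair better represents untreated cells was not tested.

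Among laminins, Lamb3 rose and Lama5 fell. Lamb3, the beta chain of the epithelial anchoring laminin, read 7.80, 8.12 and 8.03 untreated and 8.65, 8.54 and 8.82 with DAC. All treated values lay above all untreated ones, and the rise was 0.68 ± 0.13 (adjusted p = 0.0104, limma, n = 3 per group), a 1.61-fold change. Without DAC replicate 3 the adjusted p was 0.0569, and without any other single array it stayed between 0.00755 and 0.0371 (limma).

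Lama3, the alpha chain of the same laminin, did not pass the threshold. It read 6.13, 5.41 and 5.10 untreated and 5.92, 6.38 and 6.43 with DAC, with untreated replicate 1 inside the treated range (0.70 ± 0.26, adjusted p = 0.105, limma).

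Lama5, the alpha chain of the most widespread epithelial basement membrane laminin, read 10.80, 11.17 and 10.96 untreated and 10.67, 10.21 and 10.43 with DAC. The fall was small, with all treated values below the untreated ones (-0.54 ± 0.16, adjusted p = 0.0479, limma). It was not called in the fit by probe. Nor was it called without untreated replicate 2 or 3 (adjusted p = 0.172 or 0.121, limma) or without DAC replicate 2 or 3 (0.178 or 0.144). Lamc1, the gamma chain of most laminins, read 10.44, 10.60 and 10.56 untreated and 10.32, 10.07 and 10.29 with DAC (-0.31 ± 0.12, adjusted p = 0.119, limma), while its second probe gave 0.04 ± 0.13. Lamb1 read 7.82, 6.97 and 7.197 untreated and 6.98, 7.55 and 7.52 with DAC, with wide overlap (0.02 ± 0.24), and its sign turned with median scaling. Lamb2, a beta chain of mature basement membranes, differed by -0.23 ± 0.17.

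**Figure D5:**
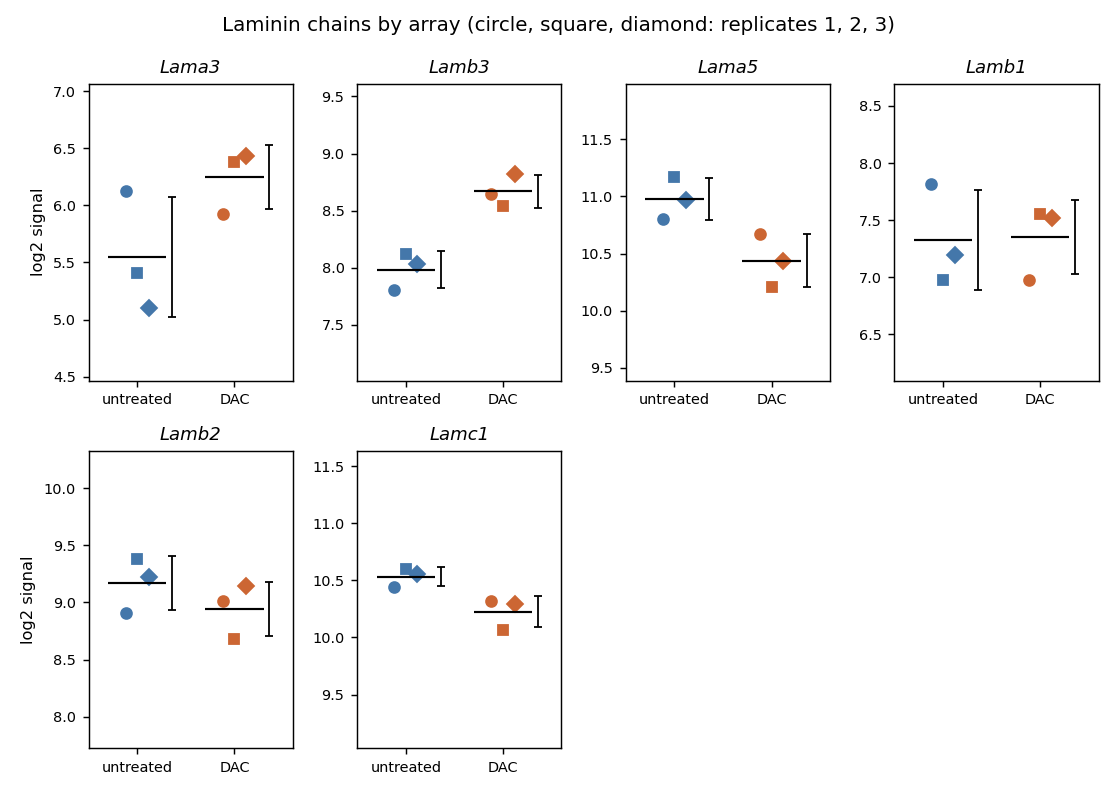
Log2 signal on each array for 6 of the 7 tested laminin chains, untreated in blue and DAC in orange, with the group mean (line) and SD (bar beside it), n = 3 per group; each panel has its own axis, which does not start at 0. Lamb3 is higher and Lama5 and Lamc1 are lower on every DAC array, and in Lama3 untreated replicate 1 at 6.13 lies among the DAC arrays.

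Other basement membrane genes moved both ways. Of 14 tested, 2 rose and 5 fell, with a median change of -0.25, where 10.1% of all genes rose and 7.21% fell. Col4a5, a collagen IV chain, fell by 0.83 ± 0.15 (adjusted p = 0.00668, limma), and Bcam, a cell-surface receptor for the laminin chain of Lama5, fell by 0.79 ± 0.15 (adjusted p = 0.0103). Fbln1 and Agrn, matrix proteins that bind laminin, rose by 0.77 ± 0.16 and 0.61 ± 0.13, and each call needed replicates 2 and 3 of both groups. The collagen genes Col4a1, Col4a2 and Col18a1 also fell, and each of these calls was lost in 4 of the 6 fits that left out an array. The call on Bcam was lost without DAC replicate 2. Without untreated replicate 1, 3 rose and 6 fell, and without any other single array 0 to 2 rose and 1 to 4 fell.

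Among matrix ligands of integrins, of 14 tested, 0 rose and 5 fell by limma, beside 10.1% and 7.21% of all genes at that adjusted threshold. With an unadjusted p under 0.05, where all genes were not counted, 1 was higher and 5 lower. The median change of the 14 was -0.22. The matricellular proteins Ccn1 and Ccn2 fell by 1.03 ± 0.13 and 0.67 ± 0.10 (adjusted p = 0.00133 and 0.00347, limma) in every fit that left out an array. The fall of fibronectin, Fn1, was 0.97 ± 0.20 and that of thrombospondin, Thbs1, 1.74 ± 0.39. The call on Fn1 likewise needed replicates 2 and 3 of both groups, and that on Thbs1 both of those untreated arrays and DAC replicate 2. Edil3, an endothelial matrix protein, fell by 0.44 ± 0.13, was detected on 1 of 3 DAC arrays, and needed the same 4 arrays as Fn1. Without untreated replicate 1, 1 ligand rose and 6 fell, and otherwise 0 or 1 rose and 2 to 5 fell.

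The cell-surface ligands of leukocyte integrins were few. Of 6 tested, 2 rose and 0 fell by limma, with a median of 0.34, beside 10.1% and 7.21% of all genes at that adjusted threshold. The counts at an unadjusted p under 0.05 were 3 higher and 0 lower, with no count over all genes beside them. Icam1, the ligand of the Itgb2 integrins, rose by 0.51 ± 0.12 (adjusted p = 0.0203, limma) and Jam2, a junctional adhesion molecule, by 1.12 ± 0.26 (adjusted p = 0.0211). F11r differed by -0.22 ± 0.11. Without untreated replicate 1 the count was 2, and without any other single array 0 or 1.

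The cytoplasmic and membrane partners of integrins, 35 of them tested, had a median change of -0.09, and 0 rose and 3 fell by limma. Over all genes 10.1% rose and 7.21% fell at that adjusted threshold, so these counts are no result about the list. An unadjusted p under 0.05 was reached by 4 higher and 5 lower genes, and all genes were not counted at that threshold. Tns4, a tensin that links integrin beta tails to the cell interior, fell by 0.83 ± 0.14 (adjusted p = 0.00608, limma). The focal adhesion adaptor Nedd9 fell by 0.47 ± 0.13 and the plakin Dst, whose epithelial form sits in hemidesmosomes, by 0.39 ± 0.11, and both calls needed replicates 2 and 3 of each group, that on Dst also DAC replicate 1. Tns3 differed by -0.37 ± 0.12 (adjusted p = 0.0677). Without untreated replicate 1, 5 rose and 6 fell, and otherwise 0 rose and 1 to 3 fell.

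Markers of other cells were measured because laminins and several integrins also mark them. Of 9 stromal markers 5 had no probe detected on any array, among them Col1a2, Col3a1 and Dcn, while 2 of 3 tested rose, Acta2 by 2.23 ± 0.23 and Col1a1 by 2.22 ± 0.24. Of 8 endothelial markers 6, including Pecam1 and Cdh5, had none detected, and Esam and Egfl7 rose by 1.14 ± 0.14 and 0.62 ± 0.14, the latter call being lost in 4 of the 6 fits without an array. Of 6 platelet markers 1 of 4 tested rose, Pf4, which was detected on DAC arrays only and so had to differ, and whose call was lost without untreated replicate 3. Of 8 muscle and nerve markers 6 had no probe detected. Of the 8 tested epithelial markers 1 rose, Cldn4, and 2 fell, Muc1 and Krt7, the call on Krt7 being lost in 4 of the 6 fits without an array. Over all genes 10.1% rose and 7.21% fell, and with so few markers tested per list these counts are no result about a list. The summed stromal signal was 285 to 322 untreated and 1204 to 1657 with DAC, and the endothelial sum 295 to 376 and 469 to 589. These sums hold only the tested genes, 3 stromal and 2 endothelial. Col1a1 contributed most to the stromal sum and Egfl7 to the endothelial one, so neither gives a direction for its list. The part of these other cell types and of leukocytes in the changes of Itgb7, Itgb6, Itgbl1, Lamb3 and Lama5 was not tested. The probe of Eif6 named ITGB4BP differed by 0.16 ± 0.13 (adjusted p = 0.455 over probes, limma).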

How the data were processed

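Total RNA from 6 plates was measured on Illumina bead arrays, per the labels' protocols, and no source used here gives the slide of an array or the scanner software. The deposited table gives, per the file headers, linear mean bead intensity, its bead standard error, the count of beads and a detection p-value for 45281 probes, and its intensities were not normalized. A second table deposited by the authors holds linear intensity values of unnamed probes, with column medians of 7.0 or 7.1, about the same distribution in each column and values below 0, and was not used for the members.

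In R 4.3.3 with limma 3.58.1, intensities were corrected and normalized by neqc (negative controls inferred from the detection p-values, offset 16, quantile, log2). Probes detected (p under 0.05) on at least 3 arrays were kept, 21415 in all. Array names were matched to RefSeq symbols or to a synonym of a single gene, and 8947 of 30854 kept the array's name. Each of the 14154 genes was represented by its kept probe with the highest mean. Groups were compared with lmFit and eBayes without covariates, and the fit was tested on simulated data. A group with no detected array was set, per array, to at least the lowest signal of a detected probe. Named were all members past the threshold, the chains of the main epithelial receptors and laminins, and the 4 genes with the lowest adjusted p of each partner list. The members, lists and alternatives were chosen with earlier results of these data known. The values of 1 laminin gene are not reported here, and it stays in the counts.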

Additional observations from a re-analysis of the deposited data

How the results depend on the processing

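Of the 5 called members, Itgb7 was called under all 16 alternatives, with log2 changes from 1.25 (offset of 50, and without background correction) to 1.90. Lamb3 was called in 14 of 16, Itgbl1 in 8 of 11, Lama5 in 9 of 16 and Itgb6 in 6 of 16. The number of members called was 5, but 3 without the filter on dim probes (0 fell), 3 with untreated replicates 2 and 3 averaged (0 fell) and 1 with the replicate block (1 rose, 0 fell). Leaving out 1 array at a time gave 1 to 13 members called, 1 to 8 higher and 0 to 5 lower, and by probe 1 to 14 against 3. By probe, 5 were called without background correction and 1 with the replicate block. With that block, 0 of the other basement membrane genes and 0 of the cell-surface ligands were called. Among matrix ligands 1 fell, and among cytoplasmic and membrane partners 1 fell, with 0 higher in either list. Over all genes, 1429 rose and 1021 fell, against 697 and 177 with the replicate block, 929 and 391 with that averaging, 907 and 967 with median scaling, and 636 to 2539 and 285 to 2162 without 1 array. Median scaling moved the median of all genes from -0.02 to -0.12. The small change of Lamb1 turned to -0.13 with median scaling and -0.10 with the averaging, and ranged from -0.16 to 0.26 without 1 array, as that of Itga2 did from -0.24 to 1.05. The cause was not tested. Deviations of same-numbered plates from their group means correlated at -0.61, -0.11 and -0.48 over genes. For differently numbered plates the values ran from -0.46 (untreated replicate 2 with DAC replicate 3) to 0.56 (untreated replicate 3 with DAC replicate 1). Untreated replicate 1 and DAC replicate 3 correlated at 0.53, so part of the variation between plates was shared across the groups. With 3 plates per group and untreated replicate 1 apart, these values cannot show whether same-numbered plates were handled in pairs. The replicate block therefore stands as an alternative to the main fit. The second deposited table and a slide term were not run, since its rows are unnamed and no slide is given.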
